A study of Arabidopsis thaliana with 16 samples.

Results

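Of 11933 probe sets for nuclear loci of Arabidopsis thaliana that carry a locus number in place of a gene symbol, 56 read highest in zone 2, the upper part of the root meristem, whether or not the medium held iron. These 56 probe sets stand for 55 loci. They were chosen by their measured values. On the scale log2(intensity + 8), the group mean in zone 2 had to lie at least 1 above the mean of zone 1, of zone 3 and of zone 4 on standard medium and again on iron-deficient (-Fe) medium. The mean zone 2 intensity also had to reach 100 on each medium. The zone profile therefore chose the members, and it is described below with no test. Applied to the other zones, the same rule gave 545 probe sets for zone 1 (the 300 with the widest margin were kept), 148 for zone 3 and 216 for zone 4.

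The arrays carried RNA from seedling roots of the accession Columbia, grown for 5 days before the transfer, cut along their length and pooled at about 15 roots per replicate. Zone 1 was the tip up to about 150 µm, zone 2 the next 200 µm to the approximate end of the meristem, zone 3 the next 200 to 300 µm up to the first emerging root hairs, and zone 4 the next 1 mm. Standard medium was a Murashige and Skoog salt mixture with Fe(III)-EDTA as its iron source, and in -Fe medium this was replaced by 0.3 mM of the iron chelator Ferrozine. Each of the 8 groups (4 zones on 2 media) had 2 arrays, 16 in all. All seedlings began on standard medium. The labels contradict each other on timing, since the treatment protocol has every root cut 24 h after transfer but the descriptions state 1 h for the standard samples. If the descriptions are right, medium and time since transfer cannot be told apart.

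Cells of the root are produced at the tip and displaced upward, so that distance from the tip stands for developmental age. In the lower meristem cells grow and divide in turn. In the upper meristem division gives way to the transition toward rapid elongation, when wall-loosening enzymes, membrane carriers and secreted proteins are laid down for the cell's expansion. Root hairs appear only above that. A piece of root is a mixture of cell types, so fewer cells of a type and less RNA per cell cannot be told apart in these values.

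The sources used here give a product or a descriptive name for only 1 of the 55 loci. AT4G28650 is listed in RefSeq as PXL2, PXY-like2, named as a relative of PXY, the receptor kinase that orients cell divisions in the vascular cambium. For the other 54 loci no function is stated below. All 55 are protein-coding in RefSeq's annotation, with a median gene length of 2154 bases against 2081 for all bare loci on the array. They lie on all 5 nuclear chromosomes, with 16, 10, 10, 6 and 13 loci on chromosomes 1 to 5. In percent these shares are 29.1, 18.2, 18.2, 10.9 and 23.6, beside 26.0, 16.4, 20.5, 14.4 and 22.7 for all bare loci measured.

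Named genes give the zones some orientation. AUR1, an Aurora kinase of dividing cells, was the only one measured of 5 markers of such cells. Over the 4 arrays of each zone it read 896 to 1164 intensity units in zone 1 and 294 to 490 in zone 2. It read 108 to 150 in zone 3 and 176 to 307 in zone 4. Its drop from zone 1 to zone 2 held on every array, and its zone 4 values overlapped those of zone 2. In the cell division list, AUR2, AUR3 and MCM7 read 358 to 549, 362 to 454 and 845 to 929 in zone 1. In zone 2 they read 102 to 273, 103 to 198 and 458 to 657. AUR2 read 167 to 392 in zone 4, overlapping its zone 2 values. Of the 3 root hair markers measured, the expansin genes EXPA7 and EXPA18 read 25.6 to 62.7 and 18 to 75.9 in zone 1 and 3194 to 5191 and 3145 to 4196 in zone 3. SCN1, the third, was less specific, with 618 to 795 in zone 1, 917 to 1236 in zone 2 and 1743 to 2741 in zone 3. On standard medium the zone 2 arrays were split, at 397 and 31.1 for EXPA7 and 248 and 30.7 for EXPA18. On -Fe medium they read 70.7 and 27.9, and 58.3 and 1.70. In zone 4, EXPA7, EXPA18 and SCN1 read 1197 to 2761, 797 to 3156 and 938.5 to 1910. Only EXPA7 lay below its zone 3 values on every array there. Of the 3 elongation markers, the xyloglucan endotransglucosylase/hydrolase gene XTH21 read 36.9 to 179 in zone 2 and 1261 to 2055 in zone 3, and COB, a gene of oriented cell expansion, 1425 to 1821 and 2058 to 2370. XTH19 did not separate these zones, with 925 and 576 in zone 2 and 769 and 1681 in zone 3 on standard medium, and 1123 and 1096 against 785 and 754 on -Fe medium. In zone 4, XTH21 read 208 to 654, COB 1582 to 2248 and XTH19 2.72 to 103. COB there overlapped its values in zones 2 and 3. A listed gene counted as measured only if it matched a locus with a probe set of its own that was kept for testing. Genes not counted may still have probes on the array. The lists of root cap, endodermis, xylem and phloem markers had no measured member, so those tissues were not checked. Of the pathway lists, 1 of 15 endodermis genes, 2 of 23 vascular genes, 3 of 12 epidermis genes, 4 of 27 cell division genes and none of the root cap (7) or very-long-chain fatty acid (11) genes were measured. None of those measured met the zone 2 rule, and none passed the test between media in either direction in any zone.

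Genes with a symbol were outside the rule, yet 7 of them had the same profile. They include EXPA9, an expansin, XTH16, a xyloglucan endotransglucosylase/hydrolase, and GH9C2, a glycosyl hydrolase of the endoglucanase family, all of them gene families that act on the cell wall. The others were BZIP61, a bZIP transcription factor, SCPL46, a serine carboxypeptidase-like protein, CuAO1, a copper amine oxidase, and SETH3. Their smallest lead of zone 2 over another zone ran from 1.08 (CuAO1) to 2.46 (BZIP61). XTH16 averaged 133, 1132, 408 and 37.2 intensity units in zones 1 to 4 on standard medium, with zone 3 in second place.

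Zone 2 exceeded its neighbours by a wide range among the members. On standard medium its lead (log2) had a median of 1.75 over zone 1 (1.02 to 3.44), 1.72 over zone 3 (1.00 to 6.27) and 3.29 over zone 4 (1.04 to 6.0). On -Fe medium the medians were 1.71 over zone 1 (1.02 to 3.96), 2.41 over zone 3 (1.25 to 5.69) and 3.70 over zone 4 (1.45 to 6.70). The signal thus stepped up on entering the upper meristem and was mostly lowest in the root hair zone. Zone 4 was the lowest zone for 45 members on standard medium, 47 on -Fe medium and 43 on both. Mean zone 2 intensity ran from 104 to 4396 on standard medium (median 481) and from 105 to 4145 on -Fe medium (median 480). Brightness depends on a probe set's own probes, so it is not compared between loci.

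**Figure D1:**
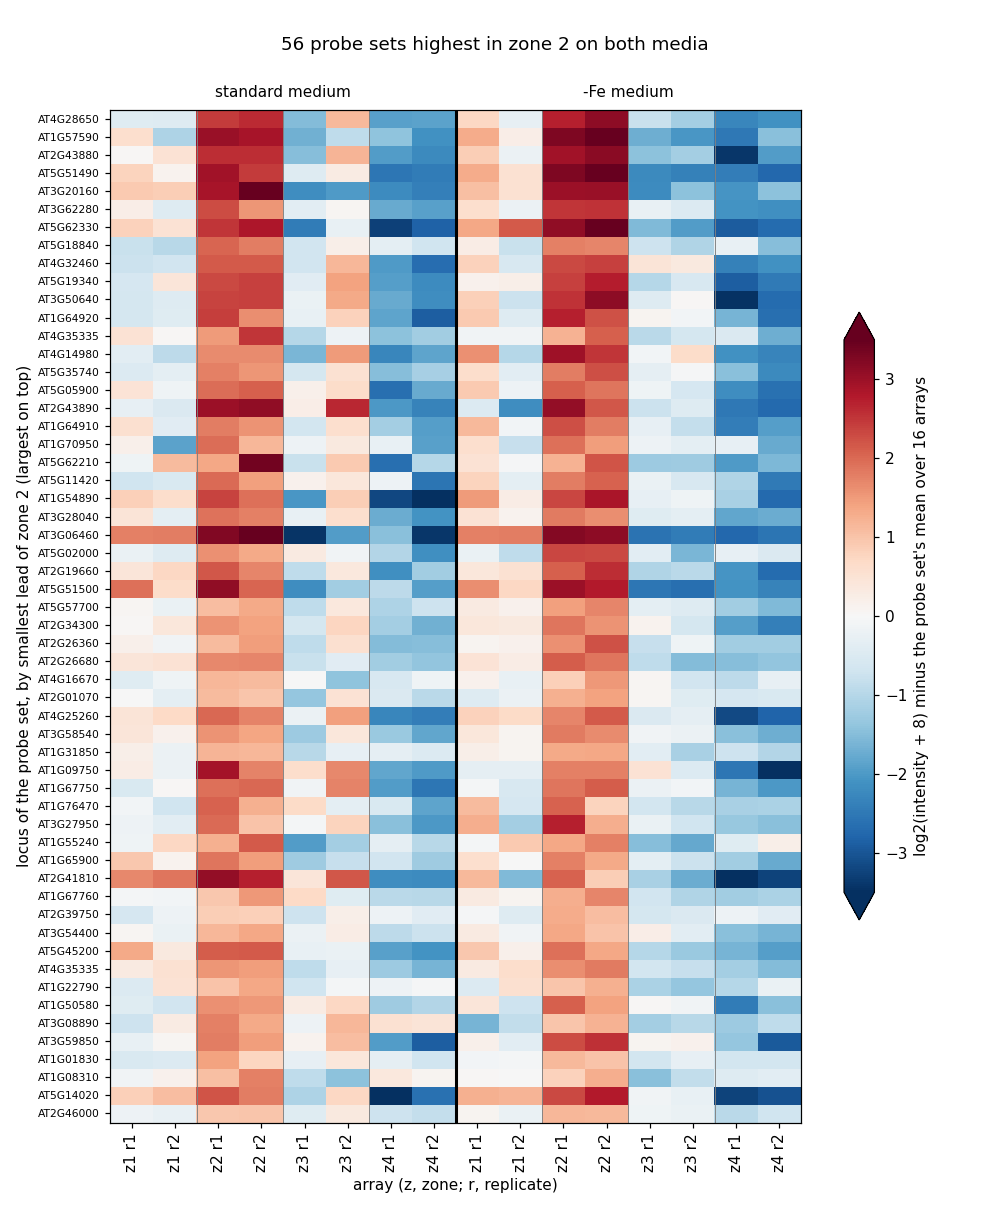
Heat map of the 56 probe sets (rows, ordered by their smallest lead of zone 2) on the 16 arrays (columns, zone and replicate, standard medium on the left), coloured by log2(intensity + 8) minus the probe set's own mean over all arrays. The zone 2 columns are the darkest red on both media, and the second zone 3 array on standard medium is redder than the first for 51 of 56 members.

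The individual arrays show how clear the zone 2 reading was. Both zone 2 arrays lay above all 6 arrays of the other zones for 56 of 56 members on standard medium, beside 7.06% of all 16505 probe sets kept for testing. On -Fe medium this held for 54 members (9.48% of all probe sets), and the same 54 did so on both media (5.29% of all). These counts follow from the rule and support nothing further. The exceptions on -Fe medium were AT1G76470 and AT2G41810. AT1G76470 read 214 and 82.9 in zone 2 and 106 and 27.2 in zone 1, so that its second zone 2 array fell below 1 zone 1 array. Ranges overlapped in the same way for AT2G41810, with 1222 and 533 in zone 2 against 641 and 92.9 in zone 1.

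The margin tapers to the threshold without a gap. The smallest of a member's 6 leads had a median of 1.28, reached 2 for 8 members and was under 1.1 for 12. Just inside the threshold of 1 stood AT1G08310 (1.02), AT5G14020 (1.02) and AT2G46000 (1.00). Just outside stood AT4G11610 (0.998), AT5G51520 (0.988) and AT4G34880 (0.985).

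The 12 members with the widest margin are given array by array, in intensity units with replicate 1 before replicate 2. AT4G28650 (PXL2) had the widest, with 2.69. On standard medium it read 176 and 175 units in zone 1, 1352 and 1518 units in zone 2, then 79.3 and 538 units in zone 3, and 58.8 and 60.2 units in zone 4. On -Fe medium it read 404 and 196, 1611 and 2155, 135 and 101, and 42.4 and 49.5 in zones 1 to 4. Both zone 2 pairs were tight and far above the rest, while the standard zone 3 pair was split almost 7-fold (a ratio of 6.79).

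AT1G57590 followed closely, with a smallest lead of 2.68. Its standard arrays read 462 and 139 units in zone 1, then 2527 and 2297 units in zone 2, 89.8 and 162 units in zone 3, and 110 and 64.0 in zone 4. Its -Fe arrays read 752 and 356, 2975 and 3776, 86.7 and 67.6, and 46.8 and 105. The signal fell by 4.23 (log2) from zone 2 to zone 3 on standard medium and by 5.31 on -Fe medium, so that the meristem pieces carried most of the signal of this locus.

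AT2G43880 and AT5G51490 each sit beside another member on their chromosome. AT2G43880 read 162 and 228 units in zone 1, then 992 and 993 units in zone 2, 50.6 and 373 units in zone 3, and 34.6 and 27.1 in zone 4 on standard medium. On -Fe medium its values were 295 and 137, 1255 and 1465, 53.1 and 65.3, and 7.71 and 35.1. Again only the second standard zone 3 array was high among the 4 zone 3 arrays. AT5G51490 read 104 and 62.9, 488 and 348, 39.5 and 70.4, and 3.24 and 3.78 on standard medium, and 152 and 85.5, 616 and 738, 5.87 and 4.51, and 4.11 and 1.58 on -Fe medium. In zone 3 its -Fe arrays lay below the offset of 8 and its standard arrays well above it.

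AT3G20160 and AT5G62330 lost nearly all signal above the meristem. On standard medium AT3G20160 read 76.7 and 73.3 units in zone 1 and 319 and 530 units in zone 2, then dropped to 1.87 and 3.16 in zone 3 and to 1.71 and 0.548 in zone 4. On -Fe medium it read 83.9 and 56.6, 344 and 353, 1.70 and 8.53, and 2.62 and 8.39. Of its 8 arrays from zones 3 and 4, only 2 reached the offset of 8. AT5G62330 read 155 and 125, 521 and 655, 9.11 and 70.0, and 1.74 and 5.20 on standard medium, and 234 and 405, 804 and 2419, 24.0 and 16.4, and 4.53 and 6.56 on -Fe medium. Its -Fe zone 2 mean of 1611 ± 1142 (SD, n = 2) rests on a pair that differed by more than the standard pair.

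AT3G62280 and AT5G18840 differed in how they fell off. For AT3G62280 the standard arrays read 172 and 104, 735 and 434, 111 and 150, and 36.5 and 32.7 in zones 1 to 4, and the -Fe arrays 222 and 123, 856 and 865, 119 and 101, and 27.5 and 26.1. AT5G18840 read 43.7 and 37.3, 350 and 297, 46.8 and 93.5, and 61.2 and 45.9 on standard medium, and 96.4 and 43.0, 291 and 279, 45.7 and 34.6, and 65.6 and 23.3 on -Fe medium. AT3G62280 stepped down from zone 2 to zone 3 and again to zone 4. For AT5G18840 the 12 arrays of the other 3 zones all stayed between 23.3 and 96.4, a low plateau around a single high zone.

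AT4G32460, AT5G19340, AT3G50640 and AT1G64920 were less steep toward zone 3 on standard medium. AT4G32460 read 368 and 391, 2795 and 2808, 391 and 1420, and 152 and 91.0 on standard medium, and 1108 and 420, 3162 and 3293, 856 and 802, and 116 and 138 on -Fe medium. AT5G19340 read 89.1 and 189, 719 and 764, 102 and 378, and 30.1 and 23.8, then 153 and 162, 760 and 974, 65.3 and 90.8, and 11.6 and 18.1 on -Fe medium. In both, the second standard zone 3 array stood above the other 3 arrays of zone 3. AT3G50640 read 81.3 and 91.8, 686 and 702, 108 and 333, and 32.3 and 22 on standard medium, and 236 and 72.2, 772 and 1180, 91.1 and 131, and 4.32 and 13.1 on -Fe medium. AT1G64920 read 47.2 and 54.5, 441 and 249, 62.5 and 140, and 15.2 and 3.31 on standard medium, and 151 and 52.8, 548 and 385, 82.1 and 70.7, and 19.4 and 5.42 on -Fe medium. The same array stood out in zone 3 for both, and the first -Fe array in zone 1.

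**Figure D2:**
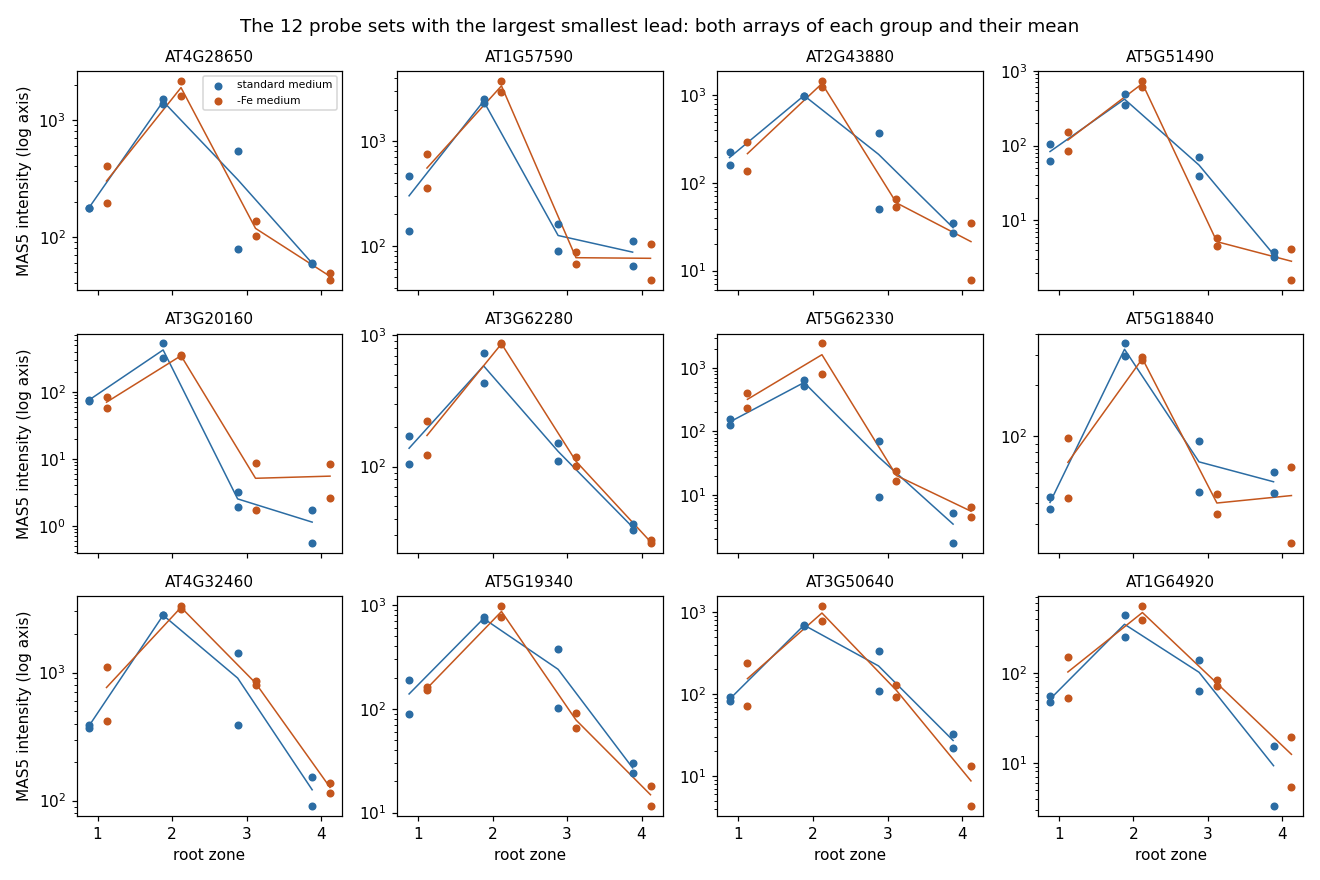
Intensity (log axis, units of the deposited values) by root zone for the 12 members with the widest margin, with a point for each array and a line through the arithmetic mean of the 2 arrays, blue for standard and orange for -Fe medium. Zone 2 is the top of every panel on both media, for instance 1352 and 1518 on standard medium for AT4G28650, and the blue zone 3 points are widely split in several panels.

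The next 12 by margin had smallest leads from 1.39 to 1.73. In order they were AT4G35335, AT4G14980, AT5G35740, AT5G05900, AT2G43890, AT1G64910, AT1G70950, AT5G62210, AT5G11420, AT1G54890, AT3G28040 and AT3G06460. AT3G06460 had the largest fall of all members from zone 2 to zone 3 on standard medium. It read 680 and 689 units in zone 1, then 1898 and 2985 units in zone 2, 10.5 and 43.7 units in zone 3, and 65.2 and 11.1 in zone 4. On -Fe medium its values were 675 and 683, 1840 and 1755, 25.5 and 28.6, and 22.1 and 26.4. Zone 1 kept well over 100 units on all 4 arrays and zones 3 and 4 fell under 100 on all 8, so its profile covers both meristem pieces.

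Among the 4 members chosen for their zone 2 intensity were AT3G54400 and AT2G34300, beside AT4G32460 and AT1G57590. AT3G54400 read 1893 and 1541, 4116 and 4675, 1571 and 2167, and 953 and 1081 in zones 1 to 4 on standard medium, and 2248 and 1670, 4673 and 3617, 2131 and 1399, and 651 and 580 on -Fe medium. AT2G34300 read 870 and 1111, 2509 and 2248, 552 and 1435, and 365 and 258, then 1109 and 1071, 3134 and 2510, 930 and 551, and 215 and 153 on -Fe medium. Both kept a clear signal in every zone and rose above it in zone 2.

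AT4G35335 was measured by 2 member probe sets, and RefSeq lists the older locus numbers AT4G35330 and AT4G35340 among its synonyms. The first averaged 34.0, 138, 15.7 and 5.65 in zones 1 to 4 on standard medium and 23.7, 105, 12.1 and 9.21 on -Fe medium. The second averaged 343, 731, 168 and 88.2, then 357, 855, 151 and 94.3 on -Fe medium. Zone order was the same in both, with zone 1 second, and the smallest lead was 1.73 and 1.08.

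Beyond the shared peak, the members differed in what surrounded it. With a lead over zone 3 of at least 3 on both media, 6 members dropped steeply at the end of the meristem. They were AT1G57590, AT3G20160, AT5G62330, AT3G06460, AT5G51500 and AT1G55240. AT1G55240 read 41.3 and 82.5, 121 and 232, 5.96 and 15.8, and 35.5 and 19.8 in zones 1 to 4 on standard medium, and 43.8 and 94.6, 132 and 176, 11.3 and 7.80, and 32.4 and 54.8 on -Fe medium. Its mean was lowest in zone 3 and higher again in zone 4 on both media, as was that of AT5G51500.

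At the other end, 7 members kept a lead over zone 4 under 2 on both media. They were AT4G16670, AT2G01070, AT2G39750, AT1G22790, AT1G01830, AT1G08310 and AT2G46000. AT2G39750 read 326 and 438, 902 and 883, 299 and 568, and 437 and 373 on standard medium, and 480 and 363, 1224 and 1066, 322 and 348, and 437 and 373 on -Fe medium. A basal signal in all zones with an added step in zone 2 describes this locus better than a meristem-limited signal. AT2G46000 was alike, with 262 and 249, 583 and 597, 222 and 380, and 179 and 163 on standard medium and 317 and 253, 677 and 671, 269 and 255, and 151 and 180 on -Fe medium. Mean zone 4 intensity was 100 or more for 9 members on standard medium and 7 on -Fe medium, and below the offset of 8 for 10 and 9 members.

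The entry into the peak was sharp for 16 members, whose lead over zone 1 reached 2 on both media. AT2G43890 was one of them. On standard medium it read 49.0 and 41.6 in zone 1 and 547 and 593 in zone 2, and on -Fe medium 42.0 and 7.37 in zone 1 and 585 and 308 in zone 2.

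Second place was shared between the tip and the elongation zone. On standard medium zone 1 was second for 28 members, zone 3 for 26 and zone 4 for 2. On -Fe medium the numbers were 47, 7 and 2. Zone 1 was second on both media for 27 members, and zone 3 on both for 6 (AT4G32460, AT2G43890, AT1G09750, AT1G67750, AT1G50580 and AT3G59850). For 19 members zone 3 was second on standard medium and zone 1 on -Fe medium, and 1 went the other way. Zone 4 was second on at least 1 medium for AT5G02000, AT3G08890 and AT1G08310. AT1G08310 read 26.4 and 15.3 in zone 3 and 74.5 and 59.7 in zone 4 on standard medium, a dip between 2 higher zones.

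These second places lean on single arrays. Without replicate 2 of zone 3 on standard medium, zone 3 was second for 17 members on that medium, and without replicate 1 for 37. On -Fe medium the count of 7 became 16 without replicate 1 of zone 1 and 2 without its replicate 2.

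The pair of zone 3 arrays on standard medium stands apart and touches every statement on zone 3. Over all probe sets its replicates had the lowest correlation of any group (0.92) and the largest SD of the log2 difference between replicates (0.83). Members read higher in replicate 2 in 51 of 56 cases, with a median log2 difference (replicate 1 minus replicate 2) of -0.92, against +0.17 for all probe sets. In the other 7 groups the members' median ran from -0.05 to 0.51, the highest being zone 1 on -Fe medium, where 45 of 56 were higher in replicate 1. A ratio of at least 3 between replicate 2 and replicate 1 occurred for 17 members, and the reverse order for 5 (AT5G02000, AT4G16670, AT1G76470, AT1G67760 and AT1G08310). Median member intensity was 76.3 and 143 on these arrays, 74.3 and 69.3 on the -Fe zone 3 arrays, and 452 to 520 on the 4 zone 2 arrays.

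Loci that peak in other zones were also unevenly spread over this pair. The 216 probe sets peaking in zone 4 had a median 1.75 higher in replicate 1 (208 of 216), the 148 peaking in zone 3 a median of -0.51, and the 300 peaking in zone 1 a median of 0.31. The lead of zone 2 on standard medium over zone 3 had a median of 2.30 against replicate 1 and 1.26 against replicate 2. At least 1 below the zone 2 mean were 54 members in replicate 1 and 37 in replicate 2. Zone 2 on standard medium was uneven in another way. Loci peaking in zone 3 were 0.92 higher in its replicate 1 (146 of 148), loci peaking in zone 1 were lower there by a median of -0.56, and EXPA7 read 397 and 31.1. The members themselves differed by a median of only 0.08 in that pair. What these array differences contribute to the members' profiles was not tested.

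The rule made no comparison between media, so the medium difference was tested, although it does hold the lead above 1 on each medium. The question of the series was how roots respond to iron deficiency along their length. Differences below are -Fe minus standard on the scale log2(intensity + 8), which understates changes of dim probe sets. They were tested with limma over all 16505 kept probe sets, with Benjamini-Hochberg adjustment and a threshold of 0.05.

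In zone 2 itself, where the members peak, none was called, beside 0.103% of all probe sets (17), and none had an unadjusted p under 0.05 (3.60% of all). A fit of the zone 2 arrays alone called no member either, beside 12 of 16505 probe sets. In that fit 7 members had an unadjusted p under 0.05, beside 768 of all probe sets. The members' median difference was 0.21, that of all probe sets -0.06, and 37 of 56 lay above 0. Both -Fe arrays exceeded both standard arrays for 24 members, beside 13.8% of all probe sets, and fell below both for 5, beside 20.3%. The highest difference was that of AT5G62330, at 1.24 ± 0.61 (SE, limma adjusted p = 1.00). At 2 arrays per group no change of the peak's height passed adjustment for any member in either fit.

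Zone 1 gave no call either, beside 0.109% of all probe sets. Its median was 0.15, against -0.00 for all probe sets, with 38 members above 0. That direction rests on 1 array, since without zone 1 -Fe replicate 1 the median was -0.03 with 24 members above 0, and without replicate 2 it was 0.32 with 45. An unadjusted p under 0.05 was reached by 2 members, AT2G41810 and AT3G08890, beside 2.48% of all. Non-overlapping arrays were higher on -Fe medium for 8 members (15.5% of all) and lower for 4 (15.1%).

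In zone 3 the members were mostly lower on -Fe medium, and 1 was called. Their median was -0.52, against -0.06 for all probe sets, and 46 lay below 0 (82.1%, beside 56.8% of all probe sets). AT5G51490 fell by 2.21 ± 0.36 (SE, limma adjusted p = 0.0200, 2 arrays per group), the only call, beside 0.291% of all probe sets called in either direction and 0.0666% called lower. Its standard arrays read 39.5 and 70.4 and its -Fe arrays 5.87 and 4.51, so that no fold change is given below the offset. The call was lost with an offset of 32, quantile normalization, median centring, array weights or a fit of the zone 3 arrays alone. An unadjusted p under 0.05 was reached by 11 members, beside 6.82% of all. Both -Fe arrays lay below both standard arrays for 23 members (17.0% of all) and above for 1 (11.7%).

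**Figure D3:**
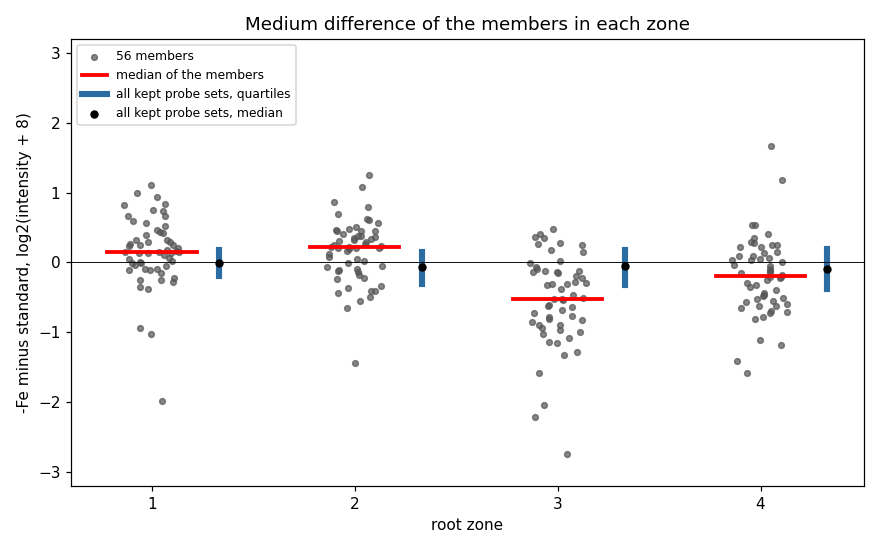
Difference between media (-Fe minus standard, log2(intensity + 8), vertical axis) of each of the 56 members in each root zone (grey points), with their median (red bar) beside the quartiles (blue bar) and median (black point) of all 16505 probe sets. The medians are 0.15, 0.21, -0.52 and -0.20 in zones 1 to 4, and the red bar lies above the blue one in zone 2 and below it in zone 3.

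The fall in zone 3 depended on which standard array it was set against. Against standard replicate 1 alone the members' median was -0.01, with 29 of 56 below 0. Against replicate 2 alone it was -0.91, with 52 below 0. For all probe sets these medians were -0.11 and 0.00. Without replicate 1 of the standard pair, 7 members were called lower (AT4G28650, AT5G51490, AT5G19340, AT2G43890, AT4G25260, AT1G67750 and AT3G08890). Calls rose over the whole array too in that fit, to 127 of 16505 probe sets, 30 of them lower, against 48 and 11 with both arrays. Without replicate 2, or without -Fe replicate 1 or 2, no member was called, and 53, 24 and 23 of all probe sets were. AT5G51490 itself kept a difference of -1.85 without standard replicate 2 (limma adjusted p = 0.0966), the lone remaining array being assumed to vary like the other groups.

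**Figure D4:**
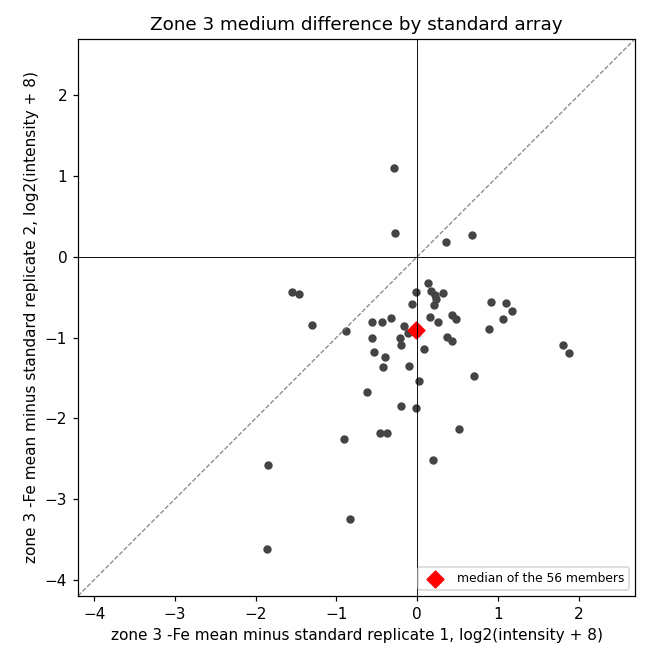
Zone 3 difference between media of each member, with the mean of the -Fe arrays set against standard replicate 1 alone (horizontal axis) and against standard replicate 2 alone (vertical axis), both in log2(intensity + 8). Points below the dashed line of equality read higher in replicate 2. The red diamond marks the medians, -0.01 and -0.91.

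Zone 4 gave no call, beside 0.927% of all probe sets. The median was -0.20 (all probe sets -0.09), with 21 members above 0, and 5 reached an unadjusted p under 0.05 (11.3% of all). Non-overlapping arrays were lower on -Fe medium for 18 members (26.5% of all) and higher for 5 (16.8%). AT1G54890 differed by 1.66 ± 0.75 (SE, limma adjusted p = 0.433), with 31.3 and 13.9 units on standard and 153 and 45.5 on -Fe medium. The arrays of that locus did not overlap, yet the test did not pass.

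Averaged over the 4 zones, 2 members fell on -Fe medium, beside 1.44% of all probe sets called in either direction and 0.745% called lower. AT2G41810 fell by 1.90 ± 0.37 (SE, limma adjusted p = 0.0219). Its standard arrays read 941 and 1077, 2498 and 1958, 391 and 1340, and 58.3 and 56.1 in zones 1 to 4, and its -Fe arrays 641 and 92.9, 1222 and 533, 128 and 80.5, and 10.8 and 23.6. In each of the 4 zones both -Fe arrays lay below both standard arrays. That its mean was highest in zone 2 on both media follows from the rule. On -Fe medium its second zone 2 array lay below its first zone 1 array. AT2G41800, the neighbouring locus and no member, averaged 2954 and 2613 in zones 1 and 2 on standard medium and 3148 and 2933 on -Fe medium, so that it was no lower on -Fe medium there. In zones 3 and 4 it was lower on -Fe medium, with means of 71.1 and 47.0 against 27.8 and 15.1. PSAN, a photosystem I subunit and the only measured gene of 4 green-tissue markers, was called lower too, with 67.7 to 709 units on the 8 standard arrays and 5.05 to 161 on the 8 -Fe arrays. Its part in the members' falls was not tested.

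AT3G08890 fell by 1.16 ± 0.22 (SE, limma adjusted p = 0.0193). It read 98.2 and 206, 590 and 432, 147 and 389, and 249 and 233 on standard medium, and 49.0 and 88.7, 341 and 405, 68.6 and 82.1, and 64.4 and 87.5 on -Fe medium. The 2 media did not overlap in any zone. Its zone differences were -1.02, -0.44, -1.58 and -1.58 from zone 1 to zone 4, smallest in the zone of the peak, but a difference between zones was not shown for it (limma F test, adjusted p = 1.00). Among the 16 fits that leave out 1 array, AT3G08890 was called in 11 and AT2G41810 in 9, with adjusted p up to 0.0628 and 0.0670, and neither changed direction. The call of AT3G08890 was also lost with median centring (limma adjusted p = 0.0574).

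The other 4 of the 6 largest averaged differences did not pass. AT2G43890 differed by -0.96 (limma adjusted p = 0.205) and AT1G09750 by -0.81 (0.138), both lower in all 4 zones. AT1G54890 differed by 0.65 (0.464) and AT4G14980 by 0.55 (0.603). AT1G09750 read 2244 and 997 in zone 2 on standard medium and 1017 and 1011 on -Fe medium, and 457 and 957 against 417 and 209 in zone 3. A mean below 0 in all 4 zones occurred for AT2G43890, AT1G09750, AT2G41810 and AT3G08890, and above 0 in all 4 for AT4G32460 and AT1G54890. An unadjusted p under 0.05 was reached by 4 members averaged over zones, beside 14.6% of all, and the members' median was -0.08 (all probe sets -0.06).

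Whether the peak grew sharper on -Fe medium was tested as the lead of zone 2 over the mean of the other 3 zones, compared between media. No member was called, and 0% of all probe sets were. The members' median gain in lead was 0.39, against -0.01 for all probe sets, with 41 of 56 above 0. A gain was not particular to the members. For the loci peaking in zone 3 the median gain of zone 2 was 0.27, with 107 of 148 above 0. For those peaking in zones 1 and 4 it was -0.20 (86 of 300 above 0) and -0.24 (59 of 216). Only AT5G51490 reached an unadjusted p under 0.05 (1.93% of all probe sets), with a gain of 1.31 ± 0.41 (SE, limma adjusted p = 1.00). The moderated F test of whether the medium difference varied between zones called no member, beside 0.151% of all probe sets, with 2 members under an unadjusted p of 0.05 (AT5G51490 and AT5G02000), beside 3.00% of all. Leaving out 1 array at a time moved the median gain between 0.20 and 0.52.

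Higher in zone 2 and lower in zone 3 on -Fe medium was the pattern of 31 members, beside 20.3% of all probe sets. This count combines the directions given above, 37 of 56 above 0 in zone 2 and 46 below 0 in zone 3. Whether the directions were linked was not tested. The zone 3 part depended on the standard array, with 29 members below 0 against replicate 1 alone and 52 against replicate 2 alone. Loci whose arrays also did not overlap in either zone were AT1G57590, AT5G51490, AT5G02000 and AT2G26680. Of all probe sets, 13.8% were higher without overlap in zone 2 and 17.0% lower in zone 3. The share without overlap in both zones was not counted, so these loci are examples only. AT5G02000 read 115 and 93.6 in zone 2 on standard medium and 199 and 192 on -Fe medium, then 42.8 and 29.0 against 23.7 and 5.29 in zone 3. AT2G26680 read 495 and 512 against 682 and 571 in zone 2, and 84.2 and 112 against 76.5 and 47.2 in zone 3. For AT5G02000, standard replicate 2 of zone 3 was the lower of its pair. The opposite pattern was that of AT3G20160, AT3G06460, AT1G65900 and AT1G08310, and its share of all probe sets was not counted.

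Beside the other sets chosen by the same rule, the medium difference in zone 2 took different values. Its median was -0.44 for the loci peaking in zone 1 (286 of 300 below 0), 0.10 for those peaking in zone 3 and -0.29 for those peaking in zone 4. In zone 3 the medians were -0.30, 0.05 and -0.08. The sets share all 16 arrays, and the differences between sets were not tested.

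A feature that the rule did not use is position. Of the 55 loci, 8 lie beside another member with no annotated protein-coding gene between them, in 4 pairs. The shares below count a locus with another of its set at most 2 protein-coding genes away. They were 14.5% for the members, beside 4.70% (14 of 298) for loci peaking in zone 1, 5.52% (8 of 145) for zone 3 and 9.30% (20 of 215) for zone 4. Pairs of the other sets may therefore include some that are not directly adjacent. The sets differ in size, and the shares were not tested. The pairs are AT1G64910 with AT1G64920 and AT1G67750 with AT1G67760 on chromosome 1, AT2G43880 with AT2G43890 on chromosome 2, and AT5G51490 with AT5G51500 on chromosome 5. No member's probe set carries the platform's suffix for probes shared between genes, but cross-hybridisation between neighbours of similar sequence was not tested.

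The partners of a pair differed in shape. AT5G51500 read 593 and 235, 1353 and 643, 27.1 and 59.5, and 74.7 and 33.1 on standard medium, and 478 and 251, 1254 and 1080, 19.2 and 17.3, and 28.7 and 23.1 on -Fe medium. It kept more of its zone 2 signal in zone 1 than its partner AT5G51490, with a lead of 1.30 against 2.24 on standard medium. One gene further along, AT5G51520 fell just outside the threshold, and averaged 161, 300, 63.3 and 9.24 on standard medium and 127, 349, 9.86 and 5.83 on -Fe medium. AT5G51510, which lies between AT5G51500 and AT5G51520, read more evenly, with zone means from 512 to 1004 on standard medium.

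AT1G64910 read 80.0 and 37.3, 198 and 171, 30.3 and 81.8, and 17.9 and 7.60 on standard medium, and 123 and 48.0, 275 and 200, 41.1 and 25.8, and 3.21 and 7.73 on -Fe medium. Its partner AT1G64920 had the larger lead over zone 1, and both ended lowest in zone 4. AT1G67750 read 118 and 179, 685 and 731, 159 and 602, and 39.6 and 23.7, then 168 and 115, 656 and 784, 151 and 165, and 50.8 and 37.3 on -Fe medium. AT1G67760 read 48.6 and 47.9, 108 and 163, 88.1 and 36.4, and 23.1 and 22.4, then 66.8 and 55.7, 136 and 188, 29.6 and 20.6, and 17.5 and 19.6. In the standard zone 3 pair these neighbours went opposite ways, AT1G67750 higher in replicate 2 and AT1G67760 in replicate 1. PSBY, a photosystem II subunit gene on the other side of AT1G67750, averaged 430, 91.9, 440 and 436 in zones 1 to 4 on standard medium, lowest in the zone where its neighbours peak.

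AT2G43890 read 74.3 and 429 in zone 3 and 9.32 and 5.73 in zone 4 on standard medium, against 33.7 and 43.1 and 4.35 and 2.58 on -Fe medium. Its partner AT2G43880 shares the high second standard array in zone 3. On that medium AT2G43890 had zone 3 in second place and AT2G43880 did so by mean intensity only, its mean log2 value being second in zone 1.

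**Figure D5:**
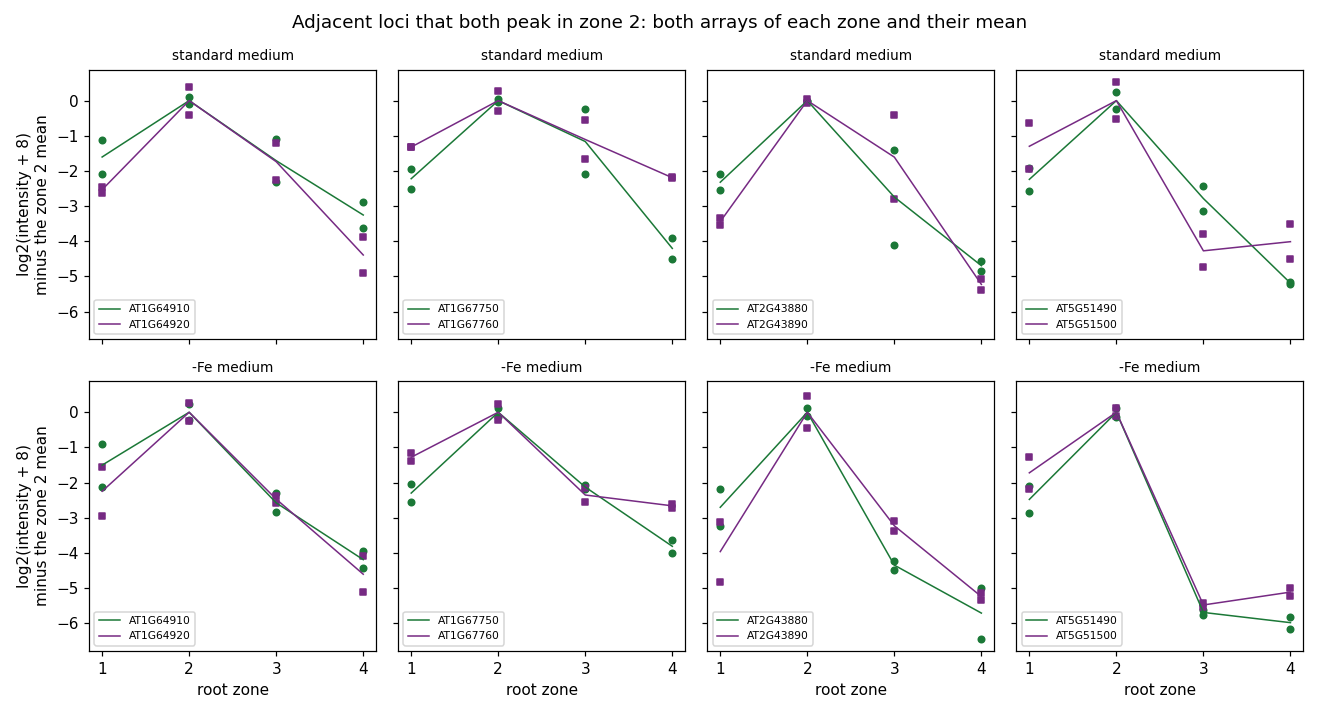
The 4 pairs of adjacent members (columns) on standard (top) and -Fe medium (bottom). The vertical axis gives log2(intensity + 8) minus the locus's own zone 2 mean on that medium, the horizontal axis the root zone, with points for arrays and lines for means, green for the first and purple for the second locus of a pair. All 8 loci drop on both sides of zone 2, and on standard medium AT5G51490 and AT5G51500 differ most from each other in zone 3.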

How the data were processed

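Total RNA from 16 pools of root pieces was amplified in 2 cycles, labelled with biotin and hybridised to Affymetrix arrays, per the labels' protocols. The deposited values were array intensities on a linear scale, made by the authors with MAS5 per the submitters' processing notes; its version is not given in the sources used here. Whether replicates were separate cultures is not stated. Each p-value therefore reflects only how far these pools differed, which may be technical, and the number of arrays limits the precision.

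Of 22810 probe sets, 64 controls were left out. The platform annotation names 1 gene for 13513 of the remaining 22746, more than 1 for 503 and lists none of the other 8730; 13436 matched a RefSeq locus of TAIR10.1, which was used for names and gene order only. Intensities were taken as log2(intensity + 8) with no further normalization, since MAS5 values are already scaled per array (array medians 51.2 to 76.0). A probe set was tested if 2 or more arrays read above their own 40th percentile, which held for 16505; all 56 members passed, which the rule's zone 2 minimum of 100 ensures. limma 3.58.1 in R 4.3.3 was fitted to 8 group means (8 residual degrees of freedom, intensity trend), with Benjamini-Hochberg adjustment over all kept probe sets for each contrast. The fit was also run on simulated data with independent noise on each array. That run does not cover correlated or uneven replicates, and nothing is concluded from it.

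The members and lists were chosen with earlier results of these data known. Named loci were the 24 with the widest margin (the first 12 on every array), all called ones and the 6 largest averaged differences, the 3 on each side of the threshold, adjacent members, the 4 with the highest zone 2 intensity and those with a second probe set. Others were named after their values were seen, as examples of a profile. Planned product classes, promoter motifs and sequences were not used here. Deviations of same-numbered arrays on the 2 media correlated at 0.371, 0.237, 0.180 and 0.258 in zones 1 to 4, so the replicate number was also tried as a block, beside other offsets, normalizations, filters, array weights and leaving out each array.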

Additional observations from a re-analysis of the deposited data

How the results depend on the processing

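With 2 arrays per group, small changes of the members could not be separated from the spread between replicates. The number of probe sets that met the rule was 56, and between 37 and 73 when 1 array was left out (37 without zone 3 standard replicate 1); 19 members remained in every such repeat. Asking for the lead in each replicate-numbered pair, and for both zone 2 arrays above all other arrays of that medium, left 17. Calls between media in zones 1 and 2, in the test of a difference between zones and in the test of the lead were 0 under every alternative run. The single zone 3 call became 0 with an offset of 32, quantile normalization, median centring, array weights or a fit of the zone 3 arrays alone, and ranged from 0 to 7 when 1 array was left out (7 once zone 3 standard replicate 1 was dropped, and 0 once its partner or either -Fe array of that zone was); calls over all 16505 probe sets, 48 with every array, were 127, 53, 24 and 23 in these fits. The cause was not tested. The 2 calls averaged over zones became 1 with median centring (AT2G41810), and ranged from 0 to 4 when 1 array was left out. AT2G43890 and AT4G25260 joined them without zone 3 standard replicate 1, whereas none remained without replicate 2 of zone 1 on standard medium, or without replicate 1 of zone 4 on either medium. Calls over all probe sets were 237 with every array, 320 in the first of these fits and 149, 161 and 150 in the others. Median centring moved the median of all probe sets from -0.06 to 0.12 in zone 2 and from -0.06 to 0.09 in zone 3, and the members' medians to 0.40 and -0.37. Over repeats without 1 array the members' median lay between -0.03 and 0.32 in zone 1, between 0.15 and 0.25 in zone 2, between -0.91 and -0.01 in zone 3, between -0.30 and -0.15 in zone 4, and between -0.16 and 0.03 averaged.

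With the replicate number as a block, members called numbered 0, 0, 1 and 0 in zones 1 to 4 and 2 averaged, as without it. With the block fitted within each zone, 1 member was called in zone 4 (AT3G08890, -1.58, with an adjusted p just under the threshold), beside 179 of all 16505 probe sets against 153 without the block. Over all probe sets the averaged contrast called 237 without a block, 321 with it and 446 with it fitted within each zone. It changed no other call of a member.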
